A study of Mus musculus with 8 samples.

Results

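The genes of the insulin-like growth factor (IGF) ligands, receptors and binding proteins were compared between dystrophic and WT skeletal muscle. Members were taken by symbol as the rows Igf1, Igf2, Igf1r, Igf2r, Igfbp2, Igfbp3, Igfbp4, Igfbp5, Igfbp6 and Igfbp7, which are 10 of the 55401 genes in the table. Each value was a normalized count, the number of reads assigned to a gene in one muscle divided by a size factor for that muscle. Of the members, 8 reached a mean of 10 normalized counts over the muscles and were among the 13677 genes tested, and Igf2 and Igfbp2 fell under that minimum.

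Bulk RNA-seq had been done on whole TA (tibialis anterior) muscles of male mice aged 6 mo, 4 WT and 4 mdx5cv, both on the C57/Bl6 background. The mdx5cv mouse is a model of Duchenne muscular dystrophy that carries a point mutation in Dmd, the dystrophin gene, in every cell of the body, and no other allele or agent was given for either group. A whole muscle also holds vessels, nerve, connective tissue and any infiltrating cells. The depth, as recovered reads, was 13862559 to 14921057 for the WT muscles and 13175524 to 14502624 for the mdx5cv muscles. Dmd itself had normalized counts of 6914, 8155, 6579 and 6169 in WT muscles and of 4399.6, 4056, 3941 and 3461 in mdx5cv muscles (log2 fold change -0.81, SE 0.12, limma adjusted p = 0.000177), and the mutated base itself was not examined. All 6 muscle fiber markers were detected in every muscle. The 5 lymphocyte markers were at or near 0, with a summed normalized count of at most 19.98 in any muscle. Replicate numbers are those of the labels, and p-values measure only the spread between these muscles.

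IGF1 and IGF2 are secreted peptides that bind the IGF1 receptor, a receptor tyrosine kinase that signals through insulin receptor substrates to PI3K, AKT and mTOR and through RAS to ERK. The product of Igf2r, the cation-independent mannose 6-phosphate receptor, takes up IGF2 and delivers it and lysosomal enzymes to lysosomes. The IGF binding proteins hold the ligands outside cells and set how much reaches the receptors, and proteases release the ligands again. In skeletal muscle IGF1 is known as a growth and regeneration factor made by fibers, macrophages and fibroblastic cells, IGF2 as a factor of differentiating myoblasts, and IGFBP5 as the binding protein most typical of muscle.

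The members lie on 7 chromosomes of the GRCm38 (mm10) build, and each is a protein-coding gene in GENCODE M21. Igf1 (ENSMUSG00000020053) is at chr10:87858265-87937042 on the plus strand and Igf2 (ENSMUSG00000048583) at chr7:142650766-142666816 on the minus strand. Igf1r (ENSMUSG00000005533) is at chr7:67952827-68233668 on the plus strand and Igf2r (ENSMUSG00000023830) at chr17:12682406-12769664 on the minus strand. A pair of binding protein genes, Igfbp2 (ENSMUSG00000039323, chr1:72824503-72852474, plus strand) and Igfbp5 (ENSMUSG00000026185, chr1:72857932-72874884, minus strand), are neighbours that point towards each other with 5457 bases between them. Igfbp3 (ENSMUSG00000020427, chr11:7206086-7213923, minus strand) and Igfbp4 (ENSMUSG00000017493, chr11:99041244-99054392, plus strand) share a chromosome but are far apart. Igfbp6 (ENSMUSG00000023046) is at chr15:102144362-102149511 on the plus strand and Igfbp7 (ENSMUSG00000036256) at chr5:77349240-77408041 on the minus strand.

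Promoter sequences are shown for 4 members, the receptor pair because both receptors stood higher in every mdx5cv muscle, and Igfbp2 and Igfbp5 because these neighbours were the least and the most abundant members in WT muscle. Each is the 250 bases before a RefSeq start (GRCm38.p6), written 5′ to 3′ on the strand of the gene, with E-boxes (CANNTG, which reads the same on both strands) in capitals. That of Igfbp5 was cut to the 231 bases that no annotated exon covers. The Igf1 window lies wholly inside an annotated Igf1 exon and is not printed. For Igfbp5 the bases just after the RefSeq start occur in a GENCODE M21 transcript of the gene. For the printed Igf2r, Igf1r and Igfbp2 windows they do not, so these windows do not lead directly into an annotated transcript. A second Igfbp2 window, not printed and with 11 CpG dinucleotides, does. The regions are chr17:12769707-12769956 (minus strand) for Igf2r, chr7:67952007-67952256 (plus strand) for Igf1r, chr1:72824230-72824479 (plus strand) for Igfbp2 and chr1:72874885-72875115 (minus strand) for Igfbp5.
Igf2r: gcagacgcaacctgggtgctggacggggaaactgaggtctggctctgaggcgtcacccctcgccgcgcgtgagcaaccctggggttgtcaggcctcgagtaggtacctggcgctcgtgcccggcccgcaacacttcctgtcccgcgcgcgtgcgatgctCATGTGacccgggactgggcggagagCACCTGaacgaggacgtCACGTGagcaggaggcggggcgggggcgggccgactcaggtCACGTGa
Igf1r: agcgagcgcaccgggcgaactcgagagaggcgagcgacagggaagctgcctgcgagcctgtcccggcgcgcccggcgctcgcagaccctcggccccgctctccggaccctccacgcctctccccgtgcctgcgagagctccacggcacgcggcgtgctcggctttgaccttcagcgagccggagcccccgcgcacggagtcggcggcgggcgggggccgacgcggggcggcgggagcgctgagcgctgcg
Igfbp2: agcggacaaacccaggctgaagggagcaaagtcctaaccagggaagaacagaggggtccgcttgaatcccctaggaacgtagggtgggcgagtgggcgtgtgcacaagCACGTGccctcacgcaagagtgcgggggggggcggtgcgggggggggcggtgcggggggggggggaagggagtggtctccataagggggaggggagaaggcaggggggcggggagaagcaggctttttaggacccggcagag
Igfbp5: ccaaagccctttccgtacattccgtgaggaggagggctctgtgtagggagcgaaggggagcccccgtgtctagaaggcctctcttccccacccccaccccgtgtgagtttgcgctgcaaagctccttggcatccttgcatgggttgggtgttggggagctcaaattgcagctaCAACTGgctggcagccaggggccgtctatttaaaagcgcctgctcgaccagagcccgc
The Igf2r promoter holds 4 E-boxes and 27 CpG dinucleotides, and that of Igf1r holds 0 E-boxes and 42 CpG dinucleotides. The Igfbp2 promoter has 14 CpG dinucleotides and the whole Igfbp5 window has 10, with 1 E-box each. Windows were found for all 10 members, 14 windows in all because some genes have more than 1 start. An E-box was in 9 of these 14 windows and in 66.2% of the 32817 windows of all genes. The STAT motif TTCNNNGAA, searched on both strands, was in 0 of the 14 windows and in 7.01% of all windows. The median window of all genes had 6 CpG dinucleotides (quartiles 2 and 16), and the members ranged from 1 to 42. These matches describe the letters of the windows only.

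Both ligands stood higher in the mdx5cv muscles, with Igf1 at 2.03 times its WT mean and Igf2, which was nearly absent from WT muscle, at 8.63 times. Normalized counts of Igf1 were 128, 156, 136 and 148 in WT muscles and 247, 256, 226 and 425 in mdx5cv muscles. The groups did not overlap, and mdx5cv replicate 4 was well above the other 3 mdx5cv muscles. The mean rose from 142 ± 12.3 to 289 ± 91.9 (SD, n = 4), and the log2 fold change was 0.97 (SE 0.18, 95% confidence interval 0.59 to 1.35, limma adjusted p = 0.000784). This is just under the fold change of 1 on the log2 scale that was used as a second threshold. Igf1 was called in all 19 other fits, with log2 fold changes from 0.77 to 1.33, and the lowest was that without mdx5cv replicate 4. In bulk muscle, a change in the number of cells that express a gene and a change in RNA per cell cannot be told apart. Gene counts do not separate the Igf1 isoforms, and the antisense gene Igf1os, which overlaps its 5′ end on the opposite strand, reached at most 3.18 normalized counts in any muscle.

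Igf2 had 1, 0, 1 and 5 reads in WT muscles and 25, 13, 9 and 27 reads in mdx5cv muscles. As normalized counts these were 1.15, 0, 1.11 and 5.30 in WT and 23.2, 12.3, 8.10 and 21.6 in mdx5cv. Every mdx5cv muscle was above every WT muscle, although WT replicate 4 came close to mdx5cv replicate 3. The means were 1.89 ± 2.33 and 16.3 ± 7.27 (SD, n = 4), from 7 reads in all WT muscles and 74 in all mdx5cv muscles. With no filter on low values the log2 fold change was 2.79 (limma adjusted p = 0.000968), and DESeq2 on the recovered reads gave 3.09 (adjusted p = 0.000383). Of the Igf2 exon bases, 62.8% are shared with Gm49394, an annotated gene on the same strand, which had 1 read in all 8 muscles together. How reads in shared bases were assigned is not given in the sources used here.

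**Figure D1:**
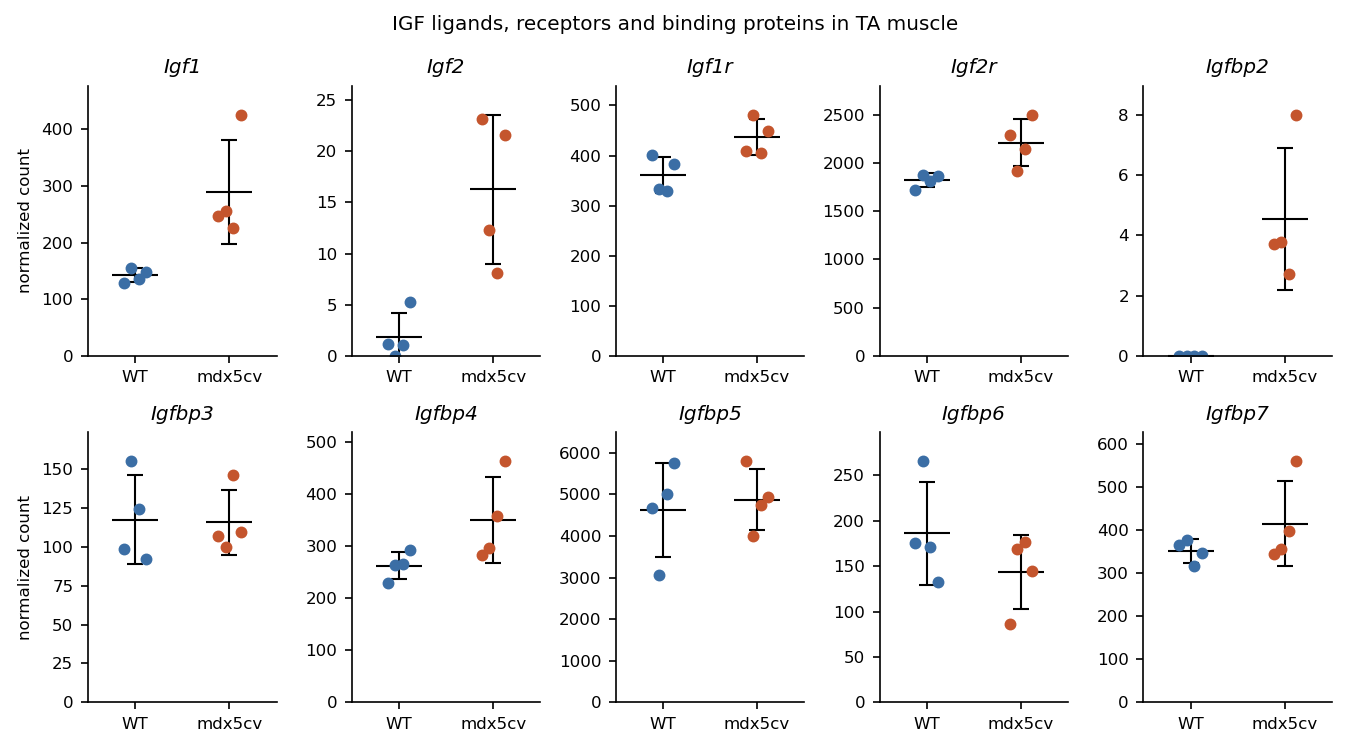
Normalized count (linear axes from 0) of each of the 10 members in 4 WT and 4 mdx5cv TA muscles. Points are muscles, and the bar and whiskers are the mean and SD; Igf1, Igf2, Igf1r, Igf2r and Igfbp2 do not overlap between groups, and the other 5 members do.

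The mean levels of Igf1r and Igf2r in mdx5cv were 1.21 and 1.22 times those in WT, and the Igf2r difference passed the test while that of Igf1r did not. Igf2r, the receptor that removes IGF2, had normalized counts of 1717, 1877, 1817 and 1862 in WT muscles and of 2287, 1912, 2145 and 2496 in mdx5cv muscles. Its groups did not overlap, although mdx5cv replicate 2 lay just above the highest WT muscle. The means were 1818 ± 72.3 and 2210.2 ± 246 (SD, n = 4), and the log2 fold change was 0.28 (SE 0.10, 95% confidence interval 0.05 to 0.50, limma adjusted p = 0.0461). That call was not firm, as the adjusted p was 0.05 or more in 11 of 19 other fits and ranged from 0.00242 to 0.175 over them. Leaving out WT replicate 1, 3 or 4 or mdx5cv replicate 1, 3 or 4 ended it, with an adjusted p of up to 0.120. Airn, an imprinted non-coding RNA that runs antisense to Igf2r across its promoter, also rose, from 203 ± 18.3 to 259.7 ± 37.4 (limma adjusted p = 0.0431), a call that was lost in 10 of 19 other fits. The libraries were stranded, but the strand setting of the counting is not given in the sources used here, so reads of Igf2r and Airn may not be fully separated.

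Igf1r, the signalling receptor for both ligands, had normalized counts of 401, 332, 329 and 383 in WT muscles. In mdx5cv muscles it had 409, 481, 405 and 449. The lowest mdx5cv muscle was only just above the highest WT muscle, so the groups were adjacent without overlapping. The means were 362 ± 36.2 and 436 ± 35.9 (SD, n = 4), and the log2 fold change was 0.27 (SE 0.11, 95% confidence interval 0.03 to 0.51, limma adjusted p = 0.0636). The adjusted p ranged from 0.00164 to 0.228 over the other fits, and 1 of 19 called it.

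Of the 5 binding proteins tested, 0 passed the threshold in limma, and 1, Igfbp4, had an unadjusted p under 0.05. By edgeR 1 binding protein was called, Igfbp4, and by DESeq2 1 was called, Igfbp2. Igfbp2 encodes a binding protein with a preference for IGF2. It had 0 reads in each of the 4 WT muscles and 4, 4, 3 and 10 reads in the mdx5cv muscles. These were normalized counts of 3.71, 3.77, 2.70 and 7.99, so that the gene was detected in every mdx5cv muscle, highest in replicate 4. The mdx5cv mean was 5.50 times a limit of 3 reads over the WT group. That limit covers the counting error of WT only, not that of the mdx5cv reads or the spread between muscles. With no filter on low values limma gave an adjusted p of 0.000415, and DESeq2 gave 0.00446.

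Igfbp4, which inhibits IGF action and is cleaved by the protease PAPPA, had normalized counts of 229, 264, 265 and 293 in WT muscles and of 283, 296, 358 and 463 in mdx5cv muscles. The highest WT muscle lay between the lowest pair of mdx5cv muscles. Its log2 fold change was 0.39 (SE 0.15, 95% confidence interval 0.06 to 0.72, limma adjusted p = 0.0554). It was called in 6 of 19 other fits, among them those without WT replicate 4, mdx5cv replicate 1 or mdx5cv replicate 2 (adjusted p 0.0492, 0.0331 and 0.0396), and its adjusted p rose to 0.154 without mdx5cv replicate 4. Igfbp7, which binds IGFs weakly and is abundant in vessels, had 364, 377, 315 and 346 normalized counts in WT and 345, 357, 396 and 559 in mdx5cv. Only replicates 3 and 4 of mdx5cv were above all WT muscles, and the log2 fold change was 0.21 (SE 0.15, 95% confidence interval -0.10 to 0.53, limma adjusted p = 0.262). Without mdx5cv replicate 4 the log2 fold change was 0.06.

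Igfbp5, the most abundant member, had 4677, 3058, 5006 and 5762 normalized counts in WT muscles and 5795, 4004, 4756 and 4951 in mdx5cv muscles. WT replicate 2 was the lowest and mdx5cv replicate 1 the highest of the 8 muscles, and the groups lay over each other. The log2 fold change was 0.10 (SE 0.18, 95% confidence interval -0.28 to 0.48, limma adjusted p = 0.678). Igfbp3, the main carrier of IGFs in blood, ranged from 92.2 to 155 normalized counts in WT and from 99.996 to 146 in mdx5cv (log2 fold change -0.01, SE 0.18, 95% confidence interval -0.40 to 0.38, limma adjusted p = 0.976). Igfbp6, which prefers IGF2, had 175, 265, 171 and 132 normalized counts in WT and 86.2, 169, 176 and 145 in mdx5cv. It had the lowest fold change of the members, with mdx5cv replicate 1 below all others, but the groups overlapped (log2 fold change -0.37, SE 0.24, 95% confidence interval -0.88 to 0.14, limma adjusted p = 0.227). For Igfbp3, Igfbp5 and Igfbp7 a rise of the size of that of Igf2r lies inside the interval, so such a rise is not excluded by these muscles.

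Over the 8 members tested, 2 were called higher (Igf1 and Igf2r) and 0 lower, while limma called 20.9% of all genes tested higher and 20.1% lower. At an unadjusted p under 0.05, 4 members were higher and 0 lower, but the share of all genes at that threshold is not given here. At the adjusted threshold edgeR and DESeq2 also called 0 lower. With a log2 fold change of at least 1 in either direction as well, 0 members were called, against 13.6% of all genes in either direction. The groups did not overlap for 3 of the 8, Igf1, Igf1r and Igf2r, and for 40.1% of all genes tested. The median log2 fold change was 0.24 over the 8 members and 0.00 over all genes. The 2 of 8 called higher is thus near the share of all genes. Scaling all muscles to equal totals, without size factors, called 5 members higher, but it also moved the median of all genes to 0.36 and made 86.9% of all calls higher, compared with 51.0% with size factors. Relative to that median the log2 fold changes were 0.97 for Igf1, 0.27 for Igf1r and 0.28 for Igf2r. A change of scaling shifts all genes nearly alike, so these values repeat those with size factors and do not test them. The size factors were 0.873 to 0.944 for WT muscles and 1.06 to 1.25 for mdx5cv muscles. Which scaling is the better one was not tested.

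**Figure D2:**
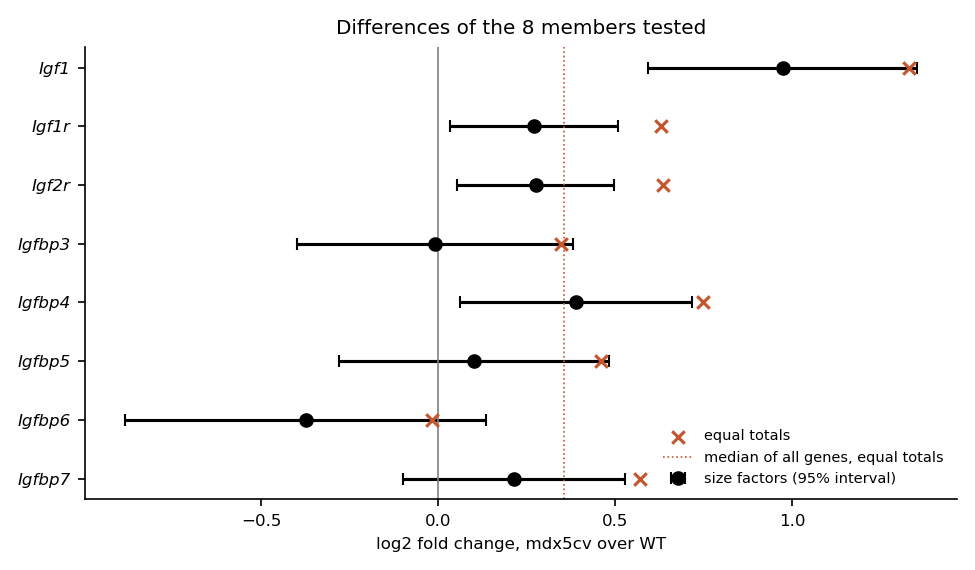
Log2 fold change, mdx5cv over WT, of the 8 members tested (dots, size factors, with 95% confidence intervals from limma, n = 4 muscles per group) and the same with equal totals (crosses). Igf1 at 0.97 is the farthest from 0, and with equal totals the crosses move with the median of all genes (dotted line at 0.36).

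Levels were compared between members as normalized counts per kilobase of exon. In WT muscle the order of the mean levels was Igfbp5 (770.2), Igfbp7 (290.2), Igf2r (195), Igfbp6 (167), Igfbp4 (59.6), Igfbp3 (37.5), Igf1r (21.5), Igf1 (14.3), Igf2 (0.330) and Igfbp2 (0). The ranges of Igf2r and Igfbp6, and of Igf2 and Igfbp2, overlapped, and the other neighbours in this order did not. In mdx5cv muscle the mean level per kilobase was 29.1 for Igf1 (range 22.8 to 42.9) and 26.0 for Igf1r (range 24.1 to 28.7). That order rested on mdx5cv replicate 4, since Igf1 was below Igf1r in replicates 2 and 3, and without replicate 4, an alternative added after the data were seen, the means were 24.5 and 25.7. In WT the Igf1 range, 13.0 to 15.7, lay wholly below that of Igf1r, 19.6 to 23.9, while in mdx5cv these ranges overlapped. Other mdx5cv neighbours whose ranges overlapped were Igfbp6 and Igfbp4, Igfbp3 and Igf1, and Igf2 and Igfbp2. With the length of the longest transcript in place of all exon bases, Igf2 and Igfbp2 changed places in mdx5cv, and in WT the ranges of Igfbp4 and Igfbp3 overlapped.

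**Figure D3:**
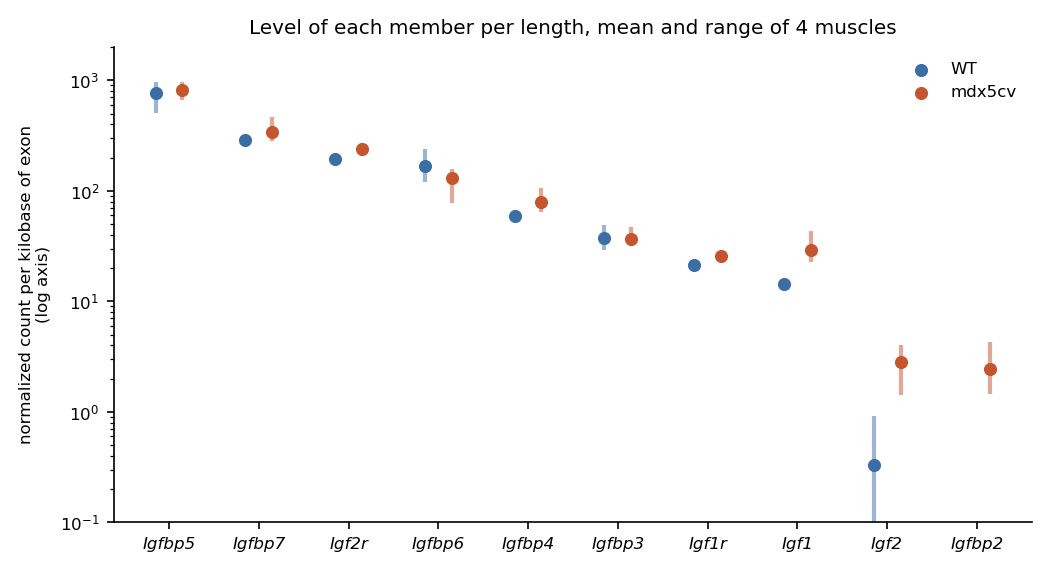
Normalized count per kilobase of exon (log axis) of each member in WT and mdx5cv TA muscle. Dots are means of 4 muscles and bars run from the lowest to the highest muscle; Igfbp2 was 0 in WT and has no dot there, and the WT bar of Igf2 reaches 0, under the axis. Igfbp5 leads in both groups, and the ranges of Igf1 and Igf1r, apart in WT, overlap in mdx5cv.

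The makeup of the binding protein RNA was compared as the share of each gene in the summed level per kilobase of the 6 genes. Igfbp5 held 57.5% ± 9.70 of it in WT and 57.9% ± 6.62 in mdx5cv (SD, n = 4). Igfbp7 held 22.1% ± 3.44 and 24.3% ± 3.997, and Igfbp6 13.0% ± 5.23 and 9.39% ± 3.17. Igfbp4 held 4.51% ± 0.488 and 5.63% ± 0.915, and Igfbp3 2.89% ± 0.967 and 2.64% ± 0.474. For each of these 5 genes the ranges of the groups overlapped. Igfbp2 was the exception, at 0% in WT and 0.172% ± 0.0746 in mdx5cv.

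The genes whose pattern over the 8 muscles was most like that of Igf1 were Vav2, Camk1d and Il4ra, with root mean square differences of 0.0886, 0.0908 and 0.0966 between log2 values centred on the mean of each gene. Vav2 is an guanine nucleotide exchange factor, Camk1d a calcium and calmodulin dependent kinase and Il4ra the receptor chain for IL-4 and IL-13. For Igf2 they were Fignl1, Arhgap11a and Ms4a4a, with differences of 0.335, 0.367 and 0.384. The 8 points share 1 contrast between groups, and at the low counts of Igf2 these differences are large.

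Igf1, Igf2r, Igfbp2, Igfbp4 and Igfbp7 all had their highest mdx5cv value in replicate 4. Among mdx5cv muscles replicate 4 also had the highest macrophage, fibroblast, satellite cell and regenerating fiber marker sums and the lowest muscle fiber marker sum. Only the last of these sums lay far enough from the other muscles to be flagged below. The summed normalized count of 9 macrophage markers was 615 to 934 in WT muscles, and 5589, 4734, 4196 and 10045 in mdx5cv replicates 1 to 4. The 6 regenerating fiber markers summed to 198 to 229 in WT, where Mymk or Mymx was at 0 in some muscles, and to 5245, 2490, 3347 and 9257 in mdx5cv. The 7 fibroblast markers summed to 6538 to 9943 in WT and to 28053, 22693, 30406 and 41327 in mdx5cv. By limma, 8 of 9 macrophage markers were higher and 1 (Cd163) was lower, and 6 of 6 regenerating fiber and 6 of 7 fibroblast markers were higher. Satellite cell markers summed to 213 to 293 in WT and 274 to 577 in mdx5cv, with 2 of 4 tested markers higher. Endothelial markers summed to 3135 to 3840 in WT and 1919 to 2448 in mdx5cv, with 5 of 6 lower. The 6 muscle fiber markers summed to 2987150 to 3173820 in WT and to 1998740 to 2709330 in mdx5cv, with 3 lower and replicate 4 the lowest. Pericyte and smooth muscle markers summed to 6176 to 7476 and to 4462 to 5159.8, adipocyte markers to 58.4 to 464 and to 14.8 to 51.9, Schwann cell markers to 266 to 542 and to 122 to 219.8, and tendon markers to 236 to 871 and to 346 to 643, in WT and mdx5cv. Of the 6 pericyte and smooth muscle markers, 3 were called higher and 3 lower, so the list had no common direction. Lower calls were made for 3 of 4 adipocyte, 3 of 4 Schwann cell and 0 of 4 tendon markers, with 0 higher. On the log2 scale Igf1 in mdx5cv replicates 1 to 4 was 0.80, 0.85, 0.67 and 1.58 above the WT mean, and the macrophage marker sum was 2.81, 2.57, 2.40 and 3.66 above it. The part of these cell types in the member values was not tested.

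**Figure D4:**
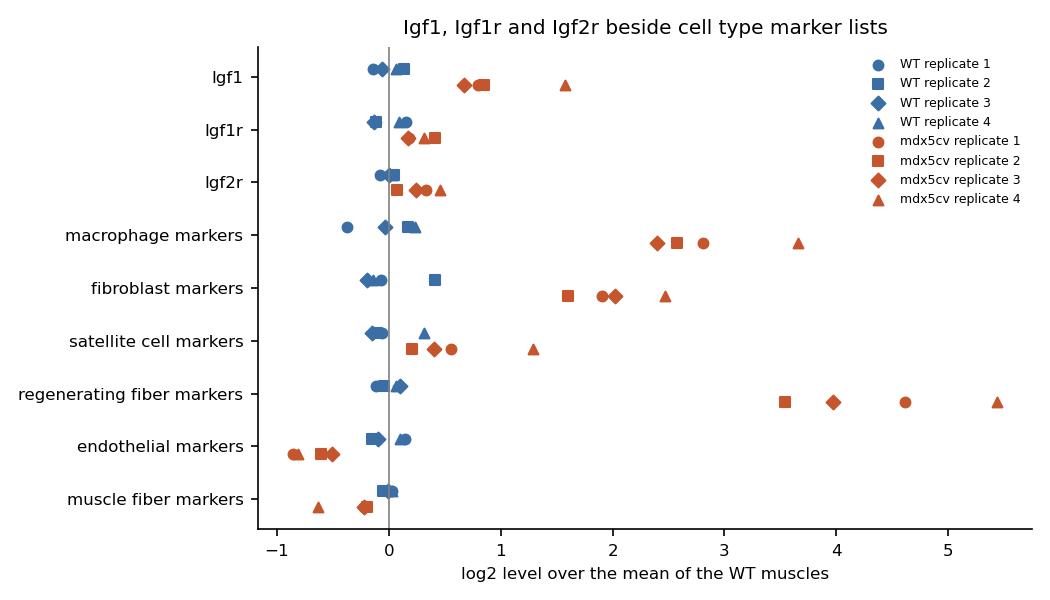
Log2 level over the mean of the WT muscles for Igf1, Igf1r and Igf2r and for the summed normalized counts of 6 cell type marker lists, with 1 symbol shape per replicate number. The mdx5cv replicate 4 (triangles) is highest for Igf1, Igf2r and the macrophage, fibroblast, satellite cell and regenerating fiber lists and lowest for muscle fiber markers.

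Genes around the members were taken as 10 lists of 77 genes, of which 67 were tested, 14 were higher, 10 were lower and 43 were not called. These shares, as for the members, are to be read against 20.9% higher and 20.1% lower over all genes, and the median log2 fold change was -0.06. With a log2 fold change of at least 1 in either direction, 3 were higher (Adam12, Socs3 and H19) and 1 was lower (Igfals). Adam12, with a WT mean of 6.77, and Igfals, with an mdx5cv mean of 9.24, reached the minimum of 10 only through their higher group. With no filter on low values both were still called (limma adjusted p = 4.40e-06 and 0.000324).

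Among partners and carriers of the ligands, Igfals, the acid-labile subunit that holds IGF and IGFBP3 or IGFBP5 in a large complex in blood, fell. Its normalized counts were 33.2, 27.4, 38.7 and 36.0 in WT muscles and 13.0, 8.49, 9.91 and 5.59 in mdx5cv muscles. The log2 fold change was -1.81 (SE 0.29, limma adjusted p = 0.000297), and the groups were well apart. Insr, the insulin receptor, was 1240.2 ± 102 in WT and 1070.4 ± 83.8 in mdx5cv and was not called (log2 fold change -0.21, limma adjusted p = 0.110). Igfbp1, the binding protein made mainly by liver, had 0 reads in all 8 muscles. Of the 3 genes of IGF2 mRNA binding proteins, 1 was tested and not called, Igf2bp2, which ranged from 1.15 to 23.3 in WT and from 12.3 to 32.8 in mdx5cv (log2 fold change 1.497, SE 0.60, limma adjusted p = 0.0621). It was called without WT replicate 4 (limma adjusted p = 0.0135) and without mdx5cv replicate 2 (limma adjusted p = 0.0421), while without WT replicate 1 its log2 fold change was 0.85 (limma adjusted p = 0.159).

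Of 9 genes that process IGFs or their binding proteins, 6 were tested, 2 were higher and 4 were not called. Adam12, a metalloprotease that cleaves IGFBP3 and IGFBP5, had 3.44, 5.48, 3.32 and 14.8 normalized counts in WT muscles and 91.7, 34.9, 72.0 and 144 in mdx5cv muscles. Its log2 fold change was 3.53 (SE 0.46, limma adjusted p = 7.03e-05), and like Igf1 it was highest in mdx5cv replicate 4. Furin, a convertase that matures the IGF precursors and the IGF1 receptor, rose from 378 ± 89.2 to 548 ± 52.8 (log2 fold change 0.56, limma adjusted p = 0.0125). Pappa, the protease of IGFBP4, and Stc2, its inhibitor, were not called, with log2 fold changes of -0.42 (limma adjusted p = 0.300) and -0.23 (limma adjusted p = 0.450).

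Genes of the growth hormone axis, which drives Igf1 in liver and contributes to it in muscle, were lower or not called. Of 6 genes tested, 4 were lower and 2 were not called. The uncalled genes were Cish (log2 fold change -0.24, limma adjusted p = 0.780) and Stat5a, which leaned the other way (0.46, SE 0.19, limma adjusted p = 0.0740). Socs2, a feedback inhibitor induced by growth hormone, had 218, 156, 185 and 150.4 normalized counts in WT muscles and 102, 81.1, 93.7 and 103 in mdx5cv muscles. The groups were apart and the log2 fold change was -0.88 (SE 0.15, limma adjusted p = 0.000467). Jak2, the kinase of the growth hormone receptor, had 876, 940.0, 823 and 814 in WT and 483, 704, 477 and 439.5 in mdx5cv (log2 fold change -0.74, SE 0.14, limma adjusted p = 0.000965). Stat5b, the transcription factor it activates, fell from 2547 ± 263 to 1792 ± 231 (log2 fold change -0.51, limma adjusted p = 0.00431). With equal totals its log2 fold change was -0.15 and was not called (limma adjusted p = 0.307). Ghr, the receptor itself, was 2054 ± 153 in WT and 1675 ± 181 in mdx5cv (log2 fold change -0.30, limma adjusted p = 0.0388), a call that was lost in 10 of 19 other fits and whose sign turned with equal totals (0.06). Leaving out WT replicate 1, 2 or 3 or mdx5cv replicate 2, 3 or 4 lost it, with an adjusted p of up to 0.0829.

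Of 8 genes for adaptors and inhibitors at the receptor, 4 were higher and 1 was lower. Irs1 and Irs2, the main substrates of the receptor kinase, were not called, with log2 fold changes of -0.09 (95% confidence interval -0.37 to 0.18, limma adjusted p = 0.590) and -0.10 (95% confidence interval -0.40 to 0.20, limma adjusted p = 0.595). Socs3, an inhibitor of cytokine and insulin signalling, had 14.9, 29.6, 24.3 and 36.0 normalized counts in WT and 118, 124, 84.6 and 151 in mdx5cv (log2 fold change 2.18, SE 0.26, limma adjusted p = 3.19e-05). Grb10 and Grb14 are related adaptors that inhibit the insulin and IGF1 receptors, and they differed in direction. Grb10 had 397, 349, 502 and 451 normalized counts in WT muscles and 702, 582, 573 and 1067 in mdx5cv muscles, again highest in replicate 4 (log2 fold change 0.75, SE 0.18, limma adjusted p = 0.00550). Grb14 had 291, 304, 257 and 257 in WT and 165, 136, 201 and 130.3 in mdx5cv (log2 fold change -0.83, SE 0.15, limma adjusted p = 0.000633). Neither pair of groups overlapped. Shc1, an adaptor to the RAS pathway, rose from 176 ± 34.4 to 269 ± 38.0 (log2 fold change 0.62, limma adjusted p = 0.00594).

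Most genes of the inner pathway were not called. Of 13 PI3K and AKT genes, 2 were higher and 11 were not called, and neither Akt1 (log2 fold change 0.31, limma adjusted p = 0.153) nor Akt2 (log2 fold change -0.12, limma adjusted p = 0.478) passed. Pik3cb and Pik3r2, a catalytic and a regulatory subunit of PI3K, rose on the log2 scale by 0.59 (limma adjusted p = 0.0176) and 0.34 (limma adjusted p = 0.0439). Of 16 mTOR genes, 1 was higher (Rptor, 0.31, limma adjusted p = 0.0461) and 3 were lower (Gsk3a, -0.53, limma adjusted p = 0.0130; Tsc1, -0.35, limma adjusted p = 0.0134; Rictor, -0.30, limma adjusted p = 0.0478). With equal totals the log2 fold changes of Tsc1 and Rictor turned to 0.01 and 0.06, and Gsk3a was not called (limma adjusted p = 0.341). Pik3cb was not called without WT replicate 3 or mdx5cv replicate 4 (limma adjusted p up to 0.0543). The call of Pik3r2 was lost when any muscle but WT replicate 2 was left out, with a limma adjusted p of up to 0.126. Rptor was lost without any muscle but WT replicate 4 (limma adjusted p up to 0.0991), and Rictor without any but WT replicate 4 and mdx5cv replicate 2 (limma adjusted p up to 0.114). Mtor, the kinase itself, was 715 ± 32.8 in WT and 778 ± 17.8 in mdx5cv and was not called (log2 fold change 0.12, limma adjusted p = 0.287).

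The FOXO factors, which AKT keeps out of the nucleus, had 1 call among 4 genes, Foxo6 (log2 fold change 0.45, limma adjusted p = 0.0409), while Foxo1 (0.07, limma adjusted p = 0.705) and Foxo3 (0.26, limma adjusted p = 0.0756) were not called. Of 8 RAS and ERK genes, 2 rose and 1 fell. Mapk3, which encodes ERK1, rose from 88.0 ± 21.3 to 147 ± 30.7 (log2 fold change 0.74, limma adjusted p = 0.00722) and Nras by 0.39 on the log2 scale (limma adjusted p = 0.0144). Map2k2, which encodes the kinase MEK2, had a log2 fold change of -0.48 (limma adjusted p = 0.00161) and was not called with equal totals (limma adjusted p = 0.372). Foxo6 was not called when any muscle but WT replicate 1 and mdx5cv replicate 4 was left out (limma adjusted p up to 0.115), and Foxo3 was called without WT replicate 4 (limma adjusted p = 0.0388).

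The imprinted non-coding RNA H19, which lies 72622 bases from Igf2 on the same strand and shares its enhancers, also rose. Its normalized counts were 1245, 1596, 2445 and 1604 in WT muscles and 4238, 3591, 4645 and 4095 in mdx5cv muscles, with a wide gap between the groups. The log2 fold change was 1.30 (SE 0.17, limma adjusted p = 6.93e-05). H19 was thus abundant in WT muscle, where Igf2 had 7 reads over 4 muscles. The Igf2 antisense gene Igf2os had at most 4.24 normalized counts in any muscle, and Ins2, an insulin gene next to Igf2, was detected in 1 of 8 muscles.

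**Figure D5:**
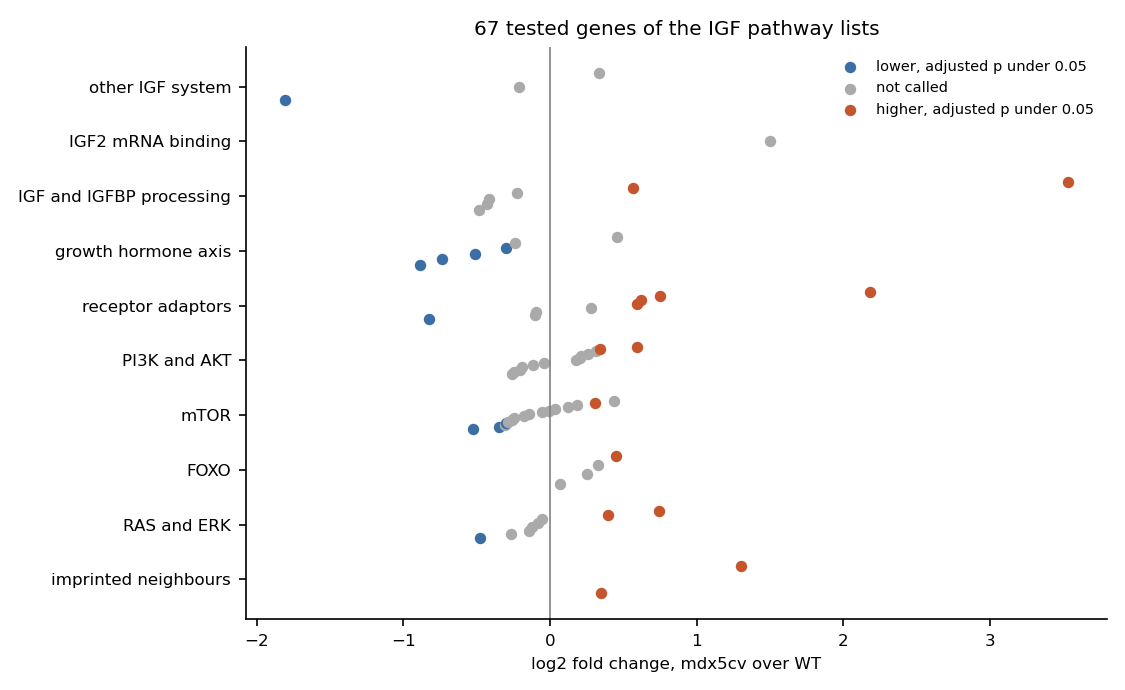
Log2 fold change, mdx5cv over WT, of the 67 tested genes of the 10 pathway lists (1 row per list, 1 dot per gene, coloured by whether limma called it at an adjusted p under 0.05). The 4 called genes of the growth hormone axis lie to the left, Adam12 (3.53) and Socs3 (2.18) lie far to the right and Igfals (-1.81) is the lowest.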

How the data were processed

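Total RNA of whole TA muscles had been made into stranded libraries, and samples were grouped by the genotype in their labels. The authors deposited a signal per gene, the read count divided by a size factor per muscle, for all genes without a filter. Tools named in the submitters' processing notes include Trim Galore 0.6.4, STAR 2.6.0c, SAMtools 1.9, featureCounts and DESeq2 1.26.0 in R 3.6.2, with build mm10. The strand setting and the handling of shared bases are not given in the sources used here. Whole reads were recovered for 100% of values within 0.01 reads, and the reads of each pair of replicates differed by more than sampling noise (chi-square over its degrees of freedom at least 9.55), so each muscle was counted as 1 sample.

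The mdx5cv and WT groups were tested two-sided in R 4.3.3 with limma 3.58.1. Values were taken as log2(normalized count + 1), the variance was fitted with a trend on the mean, and p-values were adjusted by Benjamini-Hochberg over the 13677 genes whose mean over all muscles reached 10. A gene was called at an adjusted p under 0.05. Fold changes on this scale understate the change of low genes. The deposited values are scaled, so count models on the recovered reads, the quasi-likelihood test of edgeR 4.0.16 and DESeq2 1.42.0, were alternatives, beside a pseudocount of 0.1 or 10, no filter, a count of at least 10 in every muscle, a fit without the variance trend, scaling by TMM factors, to equal totals or to the median, a replicate block, each muscle left out in turn and a second threshold of 1 on the log2 fold change in either direction. The scripts were tested on simulated data. Positions and exon lengths are those of GENCODE M21 on GRCm38, and 10 of 10 members matched by gene ID and version. Tables and figures were made in Python 3.11.15 (pandas 2.3.3, matplotlib 3.10.9).

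Members and gene lists were chosen with earlier results of these data known. The rule named the members, in each list up to 3 genes called higher and 3 called lower with the largest fold change, a set of core pathway genes (Insr, Irs1, Irs2, Grb10, Akt1, Akt2, Mtor, Foxo1, Foxo3, Ghr, Socs2, Pappa, Stc2, Igf2bp2 and H19), Dmd, the 3 genes most like each ligand and marker genes at 0 in a muscle. Igfbp1, Igf1os, Igf2os, Ins2, Gm49394, Igf2bp3, Stat5a, Cish and Cd163 were added after their values were seen. Some genes of the lists are not reported here and were left out of all list counts. The other experiments of the study were not used here.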

Additional observations from a re-analysis of the deposited data

Results flagged for a closer look

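Of 111 sets of 4 muscles examined, 6 held a muscle far from the other 3 for the range of the set, where chance gives about 5.55, and no member of the IGF group was among them. In mdx5cv replicate 4 the log2 summed count of muscle fiber markers was 20.93 (others 21.34 to 21.37), and Stat5b was 10.50 on the log2(normalized count + 1) scale (others 10.88 to 10.91). In WT replicate 1 Pik3cb was 6.73 (others 6.25 to 6.29), and in WT replicate 4 Nras was 8.65 (others 8.44 to 8.46). The log2 summed count of tendon markers was 7.88 in WT replicate 4 (others 9.48 to 9.77) and 8.43 in mdx5cv replicate 1 (others 9.26 to 9.33).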

How the results depend on the processing

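The number of members called higher was 2, and it was 5 with equal totals, 1 when centred on the median, 1 with no variance trend, 4 with DESeq2 (which tests Igf2 and Igfbp2 too) and 0 past a log2 fold change of 1 in either direction. Leaving out single muscles gave 1 to 3. The number lower was 0 in all of these. Pathway genes called higher were 14, and 30 with equal totals, 3 past a log2 fold change of 1 in either direction and 9 to 16 with single muscles left out, the lowest without WT replicate 3. Those called lower were 10, and 4 with equal totals, 18 when centred on the median, 1 past a log2 fold change of 1 in either direction and 8 to 12 with single muscles left out. Equal totals turned 9 log2 fold changes that were negative with size factors, those of the called genes Ghr (0.060), Tsc1 (0.010) and Rictor (0.058) and of the uncalled Insr (0.15), Stc2 (0.12), Irs1 (0.26), Irs2 (0.26), Akt2 (0.24) and Igfbp3 (0.35), and centring on the median turned the uncalled Foxo1 (-0.027). With single muscles left out Igfbp3 ranged from -0.12 to 0.13 and Igfbp5 from -0.085 to 0.22, neither of them called. These scalings moved the median of all genes to 0.36 and -0.09, and the cause of other changes was not tested. For Igfbp2 the log2 fold change was 2.39 in limma with no filter and 4.50 in DESeq2. Of 840 values for single genes, 708 kept their direction and side of the threshold, 96 lost and 19 gained a call, 16 changed sign and 1 moved by more than the spread between muscles.

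Same-numbered muscles deviated together only weakly (correlations 0.05, 0.03, 0.07 and 0.15). The best match in mdx5cv was the same-numbered muscle for WT replicates 3 and 4 but not for 1 and 2. These values do not settle whether the numbers pair the muscles. With the replicate block 2 members, Igf1 and Igfbp4, were called higher and 0 lower, and 16 pathway genes were higher and 11 lower. Per kilobase of the longest transcript, levels were 20.2 in WT and 40.9 in mdx5cv for Igf1, 31.7 and 38.2 for Igf1r, 48.5 and 47.7 for Igfbp3, and in WT 204.6 for Igf2r and 68.7 for Igfbp4. With 4 muscles per group, and with 7 and 0 reads in WT, the folds of Igf2 and Igfbp2 are imprecise.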

Other observations

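Igf2bp3, a gene for an IGF2 mRNA binding protein that fell under the filter on low values, was named after its values were seen. It had 12.6, 8.78, 7.74 and 8.47 normalized counts in WT muscles and 0, 0.943, 0.900 and 1.6 in mdx5cv muscles, the opposite order to Igf2. With no filter and in DESeq2 its adjusted p was 0.000624 and 0.00114. Igf1os, antisense to the 5′ end of Igf1, had 1.15, 2.19, 2.21 and 3.18 normalized counts in WT and 0, 0, 0.900 and 0.799 in mdx5cv, from 8 and 2 reads.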
